A study of Mus musculus with 4 samples.

Results

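The genes described here are 9 YAP and TAZ target genes, *Ccn1*, *Ccn2*, *Axl*, *Ankrd1*, *Amotl2*, *Ajuba*, *F3*, *Tgfb2* and *Nt5e*, out of 21938 protein-coding genes. They were chosen by name as known targets, and earlier results of these data were known when genes and motifs were chosen. Counts set against all genes or all regions are therefore descriptions and not independent tests. Each gene was followed as its gene body with 50 kb on each side. These windows held 309 of the 357570 regions of the genome that had an ATAC-seq peak in at least 1 line.

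YAP and TAZ are transcriptional cofactors that do not bind DNA themselves and reach it mainly through the TEAD factors. Kinases of the Hippo pathway keep them out of the nucleus, and their targets include secreted matrix proteins, surface receptors and regulators of the pathway itself. In small cell lung cancer (SCLC) the neuroendocrine, suspension-growing state is known for low YAP and TAZ activity, and adherent non-neuroendocrine cells for higher activity.

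ATAC-seq, which marks open chromatin by where a transposase can insert into DNA, was performed on 2 SMC lines and 2 non-SMC lines, with 1 library per line. All 4 lines were untreated mouse SCLC lines from lung tumors of the *RP* model, in which Cre delivered by adenovirus deletes *Rb1* and *Trp53*, so both deletions are shared by the groups compared. The mice had a mixed background of C57Bl/6, Balb-c and S129. The study sorted the SMC cells as NCAM high with low or absent CD44 and the non-SMC cells as NCAM low and CD44 high, and grew them in RPMI1640 with serum. Whether SMC and non-SMC lines of the same number come from the same tumor or mouse, and the age of the mice at harvest, were not given in the sources used here.

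The libraries differed in depth and in the strength of their peaks. Peaks numbered 91057 in SMC#1 and 153954 in SMC#2, and 115837 and 128710 in Non-SMC#1 and #2. The genome-wide background of reads, taken as the lowest background under any peak of a list, was 3.37, 3.26 and 1.4 times that of SMC#1 in SMC#2, Non-SMC#1 and Non-SMC#2. Strong peaks, defined as those whose -log10 q reached 5, made up 38.0% of the list of Non-SMC#1 and 14.3% to 19.5% of the others. The peaks of Non-SMC#1 carry names of another form than those of the other 3 lists, and whether it was called in the same way was not given in the sources used here. Its peaks were also the widest, with a median of 246 bp against 178 to 203 bp. Of the 7 SMC markers *Ncam1*, *Insm1*, *Neurod1*, *Chga*, *Syp*, *Sox11* and *Nkx2-1*, a promoter peak was found at 6, 7, 5 and 5 in SMC#1, SMC#2, Non-SMC#1 and Non-SMC#2, and a strong one at 2, 7, 2 and 1. *Chga* had a promoter peak in the SMC lines only and *Ncam1* a strong one in all 4. Strong peaks at the promoters of *Cd44* and *Vim* were found in the non-SMC lines only. With all peaks, *Vim* had a promoter peak in all 4 lines and *Cd44* in all but SMC#1. Of 5 fibroblast markers, *Col1a1* and *Col1a2* had a strong promoter peak in both non-SMC lines and none did in the SMC lines, 0 to 1 of 4 endothelial markers had one per line, and none of 4 immune markers did. With all peaks, 2, 2, 3 and 4 fibroblast markers had a promoter peak in SMC#1, SMC#2, Non-SMC#1 and Non-SMC#2, and *Col1a1* had one in every line. Endothelial markers with one numbered 2, 3, 2 and 3, and immune markers 0, 1, 2 and 0. The part of the fibroblast genes, depth and peak strength in the results was not tested. With 2 lines per type an exact two-sided permutation test cannot go below p = 0.333, so no test was made between the types, and differences were set against the pooled SD between lines of a type.

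The DNA shown first is where the peaks of the non-SMC lines lay over or just before the transcription start. The TEAD core searched for is GGAATG and the AP-1 motif is TGACTCA, each read on both strands (CATTCC and TGAGTCA are the opposite strands), and capitals mark them. Neither motif contains the other. These 3 promoters are the 250 bases before the RefSeq start (GRCm38.p6), the same build as mm10, in the direction of the gene. Each had a peak over at least part of it in both non-SMC lines but no SMC line. The promoters of *Ankrd1*, treated below, and *Tgfb2* also had this pattern. That of *Tgfb2* held neither motif and is not shown.

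*Ccn1* promoter, chr3:145649986-145650235, minus strand: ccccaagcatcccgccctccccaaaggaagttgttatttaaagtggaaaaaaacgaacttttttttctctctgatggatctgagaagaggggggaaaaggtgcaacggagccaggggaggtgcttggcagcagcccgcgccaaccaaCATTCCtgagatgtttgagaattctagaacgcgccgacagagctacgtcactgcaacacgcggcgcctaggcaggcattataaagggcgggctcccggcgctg
*Axl* promoter, chr7:25788734-25788983, minus strand: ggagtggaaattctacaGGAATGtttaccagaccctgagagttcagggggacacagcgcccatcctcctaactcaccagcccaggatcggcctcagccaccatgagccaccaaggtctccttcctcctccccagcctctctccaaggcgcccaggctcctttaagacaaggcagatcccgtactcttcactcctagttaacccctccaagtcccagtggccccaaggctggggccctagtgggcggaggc
*Ajuba* promoter, chr14:54577662-54577911, minus strand: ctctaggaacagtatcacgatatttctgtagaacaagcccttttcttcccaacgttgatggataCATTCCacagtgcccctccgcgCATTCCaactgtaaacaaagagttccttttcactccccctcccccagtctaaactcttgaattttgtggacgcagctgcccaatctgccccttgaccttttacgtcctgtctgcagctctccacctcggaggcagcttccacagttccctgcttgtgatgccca

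The TEAD core stood 103 bases before the start of *Ccn1*, 233 before that of *Axl*, and 186 and 164 before that of *Ajuba*. The core of *Ccn1* was covered by a peak in both non-SMC lines, and those of *Axl* and *Ajuba* in Non-SMC#1 only. For *Ankrd1* the RefSeq start lies inside the gene as GENCODE gives it, in a UTR, so its 2 TEAD cores fell 45 and 132 bases after the GENCODE start, and 30 bases around each are shown because the strong *Ankrd1* peak of both non-SMC lines covered them.

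*Ankrd1* site 1, core at chr19:36120049-36120054, minus strand: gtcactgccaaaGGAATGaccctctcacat
*Ankrd1* site 2, core at chr19:36119962-36119967, minus strand: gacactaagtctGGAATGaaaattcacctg

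RefSeq promoters were matched for 8 of the 9 genes, all but *Ccn2*. The TEAD core was found in 5 of the 8 (*Ccn1*, *Axl*, *Ankrd1*, *Amotl2* and *Ajuba*) and in 12.6% of all 32851 RefSeq promoters of this length. For *Amotl2* too the RefSeq start lies inside the GENCODE gene, and its core, 65 bases before the RefSeq start and 1067 bases after the GENCODE start, was covered by a peak in all 4 lines. An AP-1 motif was found in 1 of the 8, that of *F3*, and in 4.46% of all promoters. It stood 135 bases before the *F3* start, under a strong peak in all 4 lines.

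The next sequences are from the regions with a peak in both non-SMC lines but no SMC line (non-SMC-only regions) that ranked highest at their gene, as 200 bases around the summit of their most enriched peak. The first 4 carry TEAD cores, and those of *Ccn1* and *Tgfb2* carry neither motif although they were among the strongest. The top region of *Ankrd1* is its promoter, treated above. Those of *Axl*, with 2 AP-1 motifs and no TEAD core, and of *F3*, with neither motif, are not shown. The sequences below are read on the plus strand.

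*Ccn2*, upstream, chr10:24589372-24589571: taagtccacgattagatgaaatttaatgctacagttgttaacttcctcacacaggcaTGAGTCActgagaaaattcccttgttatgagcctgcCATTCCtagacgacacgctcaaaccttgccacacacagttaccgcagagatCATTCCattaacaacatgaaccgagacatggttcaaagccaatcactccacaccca
*Amotl2*, upstream, chr9:102673439-102673638: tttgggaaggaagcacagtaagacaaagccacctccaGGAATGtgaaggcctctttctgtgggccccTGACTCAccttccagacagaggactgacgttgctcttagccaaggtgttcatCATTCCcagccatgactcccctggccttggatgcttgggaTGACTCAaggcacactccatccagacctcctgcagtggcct
*Ajuba*, intron, chr14:54572859-54573058: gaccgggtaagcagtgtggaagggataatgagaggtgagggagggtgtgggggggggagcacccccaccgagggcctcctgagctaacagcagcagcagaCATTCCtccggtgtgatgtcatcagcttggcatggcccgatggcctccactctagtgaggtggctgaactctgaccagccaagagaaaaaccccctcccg
*Nt5e*, downstream, chr9:88373133-88373332: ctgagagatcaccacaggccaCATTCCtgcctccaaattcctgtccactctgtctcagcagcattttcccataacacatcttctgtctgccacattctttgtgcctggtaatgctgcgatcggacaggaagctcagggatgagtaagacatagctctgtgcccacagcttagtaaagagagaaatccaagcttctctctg
*Ccn1*, upstream, chr3:145685182-145685381: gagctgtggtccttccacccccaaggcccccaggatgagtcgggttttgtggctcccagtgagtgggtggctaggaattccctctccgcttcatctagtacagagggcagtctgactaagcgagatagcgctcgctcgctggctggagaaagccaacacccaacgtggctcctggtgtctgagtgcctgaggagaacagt
*Tgfb2*, downstream, chr1:186587059-186587258: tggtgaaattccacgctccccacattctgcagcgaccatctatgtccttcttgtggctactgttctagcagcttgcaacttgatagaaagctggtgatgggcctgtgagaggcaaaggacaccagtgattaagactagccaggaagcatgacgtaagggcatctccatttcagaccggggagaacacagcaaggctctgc

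For contrast, the region below lies downstream of *Ccn1* and is the only one at the 9 genes with a strong peak in both SMC lines and no peak in a non-SMC line. It carries neither motif.

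*Ccn1*, SMC-only, chr3:145623074-145623273: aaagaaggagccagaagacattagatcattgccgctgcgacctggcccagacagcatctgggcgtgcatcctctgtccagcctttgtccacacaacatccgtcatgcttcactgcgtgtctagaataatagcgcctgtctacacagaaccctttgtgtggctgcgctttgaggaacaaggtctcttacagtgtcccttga

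In the non-SMC lines all 9 target genes had a peak within a promoter of 6 kb centred on the transcription start, against 5 in SMC#1 and 8 in SMC#2. The difference, SMC minus non-SMC, was -2.5 promoters, with an SD between lines of 1.5, and it was -4 in line pair 1 and -1 in line pair 2, where lines of the same number form a pair. Without SMC#1 it was -1 and without SMC#2 it was -4. Over all protein-coding genes the share with a promoter peak was 62.2% in SMC#1, 69.3% in SMC#2, 64.6% in Non-SMC#1 and 64.9% in Non-SMC#2. At 5 of 9 the targets stood below that share in SMC#1, and above it in the other 3 lines. Strong promoter peaks were found at 2 targets in SMC#1, 3 in SMC#2, 8 in Non-SMC#1 and 7 in Non-SMC#2, and over all genes at 27.7%, 41.0%, 49.5% and 36.4%.

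At the base of the GENCODE transcription start itself, a count added after the values had been seen, a peak covered 1 target in each SMC line (*F3*), 6 in Non-SMC#1 and 5 in Non-SMC#2. *Ccn1*, *Ccn2*, *Axl* and *Ankrd1* had their start covered in both non-SMC lines but no SMC line, which is 4 of 9 where 2.34% of all genes had this pattern. With a line left out it was 4 of 9, and 5 of 9 without Non-SMC#2, and 3.55% to 6.71% of all genes. With strong peaks it was 2 of 9, *Ccn2* and *Ankrd1*, where 3.04% of all genes had it. Whether a start is covered depends on where peak edges fall. Median peak widths were 180 and 178 bp in SMC#1 and #2, and 246 and 203 bp in Non-SMC#1 and #2. The part of peak width in this count was not tested. The count rests on the annotated start: at the RefSeq start, which 8 of the targets have, the pattern was found at 3, *Ccn1*, *Axl* and *Ankrd1*, and at 2.18% of 27025 RefSeq genes, and the starts of *F3*, *Amotl2* and *Nt5e* were covered in all 4 lines. At the GENCODE start the opposite pattern was found at none of the 9 and at 2.29% of all genes. Over the whole promoter, a peak in both non-SMC lines but no SMC line was found at 1 target, *Ankrd1*, and at 2.45% of all genes. With strong peaks only it was found at 3 targets, *Ankrd1*, *Amotl2* and *Ajuba*, and at 5.3% of all genes. *Amotl2* had weaker promoter peaks in both SMC lines, with a highest -log10 q of 4.77 in SMC#1, just below the limit, and 3.65 in SMC#2. No target had the opposite pattern, which was found at 3.08% of all genes with all peaks and at 1.63% with strong peaks.

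**Figure D1:**
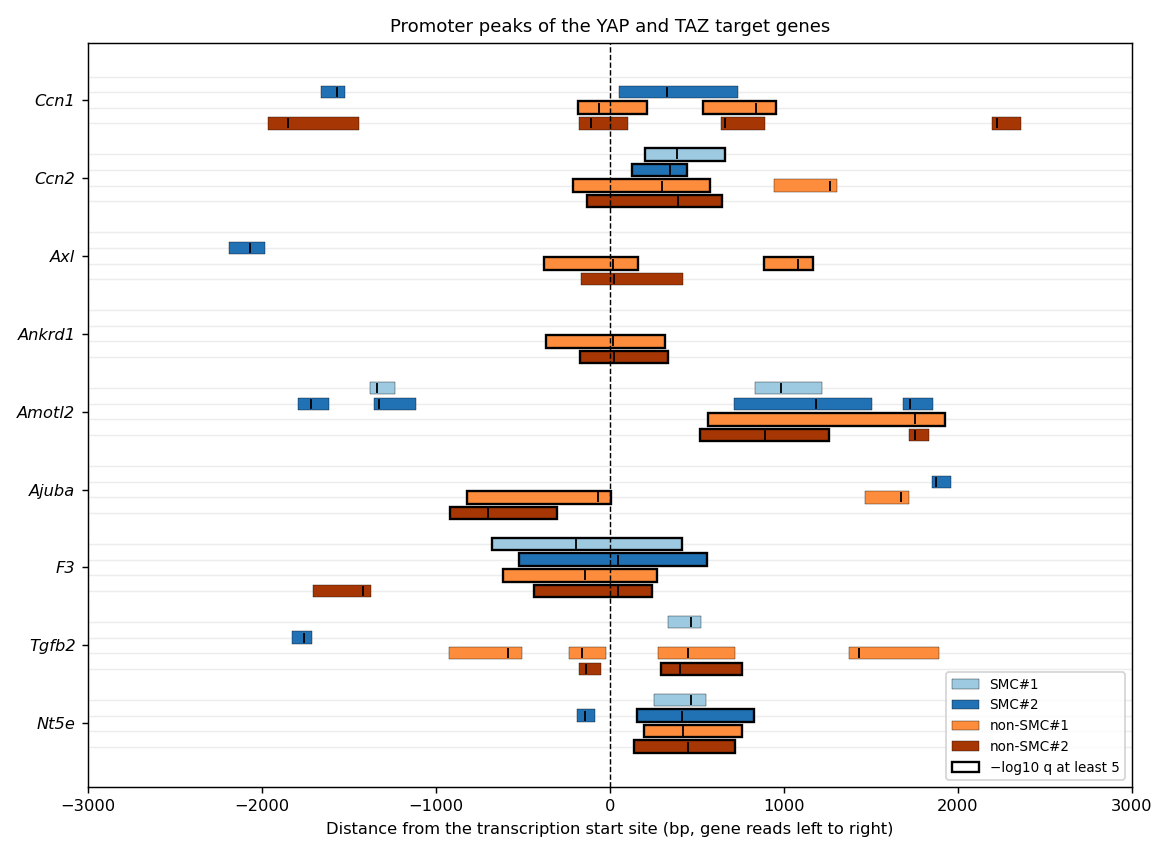
Peaks within 3 kb of the GENCODE transcription start of each target gene, 1 row per line, with distance in bp on the x axis; bars are peaks, ticks are summits and thick outlines mark strong peaks (-log10 q of 5 or more). The starts of *Ccn1*, *Ccn2*, *Axl* and *Ankrd1* lie under a peak in both non-SMC lines but no SMC line, and that of *F3* in all 4.

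Among the nuclear and cytoplasmic regulators, *Ankrd1* had no promoter peak in either SMC line. *Ankrd1* encodes an ankyrin repeat protein of muscle that also acts as a transcriptional cofactor. Its promoter peak had a pileup of 88 reads at the summit in Non-SMC#1 (chr19:36119784-36120464) and of 28 in Non-SMC#2 (chr19:36119765-36120273), and neither SMC line had a peak within the 6 kb. Over the genome background of its own library this was 59.2-fold (95% exact Poisson interval 47.5 to 73.0) and 43.8-fold (29.1 to 63.3). The lowest pileup of any listed peak was 6.58-fold in SMC#1 and 3.25-fold in SMC#2. The intervals cover counting error only. In bulk cells, a site open in more cells and a site more open in each cell cannot be told apart.

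*Amotl2*, an angiomotin family protein that binds YAP, had a peak in its first kilobases in all 4 lines. The highest had a pileup over background of 24.1-fold (12.0 to 43.1) in SMC#1, 10.4-fold (5.95 to 16.9) in SMC#2, 36.3-fold (27.3 to 47.4) in Non-SMC#1 and 32.9-fold (20.3 to 50.2) in Non-SMC#2. Both non-SMC lines were higher than both SMC lines, but the interval of SMC#1 overlapped theirs. The summits were not all at the same site. They lay 986 and 1183 bp past the start in SMC#1 and #2, 1754 bp in Non-SMC#1 and 893 bp in Non-SMC#2. *Ajuba*, a LIM protein that binds the LATS kinases of the pathway, had a strong peak just upstream of its start in both non-SMC lines, with fold enrichments over the local background of 3.87 and 5.99. Only the peak of Non-SMC#1 reached the start itself, and the SMC lines had no peak in the 3 kb before it. The only *Ajuba* promoter peak of an SMC line was a weak one in an intron of SMC#2, with a fold enrichment of 2.42.

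The secreted factors *Ccn1* and *Ccn2*, matricellular proteins that are the usual readouts of YAP and TAZ, differed from each other. The start of *Ccn1* was covered by a peak with a fold enrichment of 7.36 in Non-SMC#1 (chr3:145649769-145650165) and of 3.36 in Non-SMC#2 (chr3:145649875-145650157). SMC#1 had no peak in the *Ccn1* promoter, and in SMC#2 the nearest began inside the gene, with its summit 330 bp past the start and a fold enrichment of 3.36. *Ccn2*, by contrast, had a strong peak over its first exon in all 4 lines, with pileups over background of 21.9-fold (10.5 to 40.3) in SMC#1, 8.45-fold (4.50 to 14.5) in SMC#2, 25.6-fold (18.1 to 35.1) in Non-SMC#1 and 18.8-fold (9.70 to 32.8) in Non-SMC#2. The types overlapped, and what set the non-SMC lines apart was that their called peaks reached over the start (chr10:24595442). Those of SMC#1 and #2 began past it, at chr10:24595641 and chr10:24595569. *Tgfb2*, a TGF-β family ligand, had a peak 401 to 466 bp past its start in SMC#1 and both non-SMC lines, and a further peak 139 and 159 bp before the start in the non-SMC lines only. Of these *Tgfb2* peaks only the one past the start in Non-SMC#2 was strong, with a fold enrichment of 6.39. The others were weak, with 2.84 to 3.59. SMC#2 had a weak *Tgfb2* peak 1757 bp upstream, with 2.69.

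Among the surface proteins, *Axl*, the receptor tyrosine kinase for Gas6, had its start covered in both non-SMC lines, with fold enrichments of 5.36 (chr7:25788546-25789083) and 4.15 (chr7:25788282-25788874). SMC#1 had no *Axl* promoter peak and SMC#2 had a weak one 2067 bp upstream, with a fold enrichment of 2.89. The start of *F3*, which encodes tissue factor, was covered in all 4 lines by a strong peak, with pileups over background of 24.1-fold (12.0 to 43.1), 10.4-fold (5.95 to 16.9), 26.9-fold (19.2 to 36.7) and 26.6-fold (15.5 to 42.6) in SMC#1, SMC#2, Non-SMC#1 and Non-SMC#2. SMC#2 was the lowest, and the interval of SMC#1 held both non-SMC values. *Nt5e*, the ecto-5′-nucleotidase CD73, had a peak 417 to 466 bp past its start in all 4 lines. Its pileup over background was 11.0-fold (3.56 to 25.6) and 13.7-fold (8.45 to 20.9) in SMC#1 and #2, and 26.9-fold (19.2 to 36.7) and 29.7-fold (17.9 to 46.4) in Non-SMC#1 and #2. Both non-SMC lines were higher, with intervals that overlapped those of the SMC lines.

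With all listed peaks the target genes had a mean of 11.4 ± 3.46 peaks per window in the SMC lines and 14.9 ± 2.04 in the non-SMC lines (SD, n = 2 lines each). The difference, SMC minus non-SMC, was -3.44 peaks, with a pooled SD between lines of 2.84, and it was -7.33 in line pair 1 and 0.444 in line pair 2. The pairs thus went opposite ways, and the difference was -1 without SMC#1, -5.89 without SMC#2 and -2 without Non-SMC#1. The mean over all protein-coding genes differed by 0.259 peaks, at 10.9 in the SMC lines and 10.6 in the non-SMC lines. The shares of all genes given below were not matched for window length or for the number of peaks per window.

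*Axl* and *Tgfb2* were the 2 targets with more peaks in both non-SMC lines than in either SMC line. *Axl* had 9 peaks in SMC#1, 15 in SMC#2 and 19 in each non-SMC line. *Tgfb2* had 13, 15, 34 and 24. This pattern was found at 14.9% of all genes, so 2 of 9 was near the background, and its opposite was found at none of the targets and at 13.5% of all genes. For the other 7 targets the types overlapped or touched, as for *Ccn2* with 7, 12, 7 and 5 peaks and *Nt5e* with 4, 8, 8 and 8.

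With strong peaks only, the windows separated. They held a mean of 1.56 ± 0.629 strong peaks in the SMC lines and 6.00 ± 2.20 in the non-SMC lines, a difference of -4.44 with a pooled SD of 1.62, which was -6.44 in pair 1 and -2.44 in pair 2. Strong peaks were more numerous in both non-SMC lines than in either SMC line at 8 of the 9 targets, all but *Ajuba*, where SMC#2 and Non-SMC#2 had 3 each. The same was found at 32.2% of all genes and the opposite at 3.2%, and at none of the targets. With a line left out, a step added after the values had been seen, it was 8 without SMC#1 or Non-SMC#1 and 9 without SMC#2 or Non-SMC#2, where 33.7%, 34.2%, 53.2% and 59.2% of all genes passed. The mean over all genes also went the same way, by -1.50 strong peaks.

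The 9 targets differed in how far apart the lines stood. *Axl* had 1 strong peak in each SMC line, 12 in Non-SMC#1 and 7 in Non-SMC#2. *Amotl2* had 0, 3, 11 and 7, and *Tgfb2* 1, 2, 9 and 6. At *Ccn1*, with 2, 2, 11 and 3, most of the gap rested on Non-SMC#1, while at *Nt5e*, with 0, 2, 5 and 4, the non-SMC lines were alike.

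When each peak was rescaled to the depth of SMC#1 and kept at a rescaled p of up to 1e-05, 26, 6, 39 and 43 peaks were left at the targets in SMC#1, SMC#2, Non-SMC#1 and Non-SMC#2. The mean per window was 1.78 ± 1.57 in the SMC lines and 4.56 ± 0.314 in the non-SMC lines, a difference of -2.78 with a pooled SD of 1.13. It was -1.44 in pair 1 and -4.11 in pair 2. Over all genes the difference was -0.712, with 0.238 in pair 1 and -1.66 in pair 2. SMC#2 had few peaks at this depth also over all genes, with a mean of 1.15 per gene against 2.62 to 2.86 in the other lines. At 5 of the 9 targets, *Ccn1*, *Ankrd1*, *Amotl2*, *Ajuba* and *Nt5e*, both non-SMC lines had more peaks than either SMC line, where 21.6% of all genes did. None had the opposite, found at 4.94% of all genes.

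The local background was raised over the genome background at some peaks. The median ratio per window and line was between 1.00 and 2.58 and the highest single value, 6.37, was at *Axl* in Non-SMC#2. Its part in the counts was not tested.

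**Figure D2:**
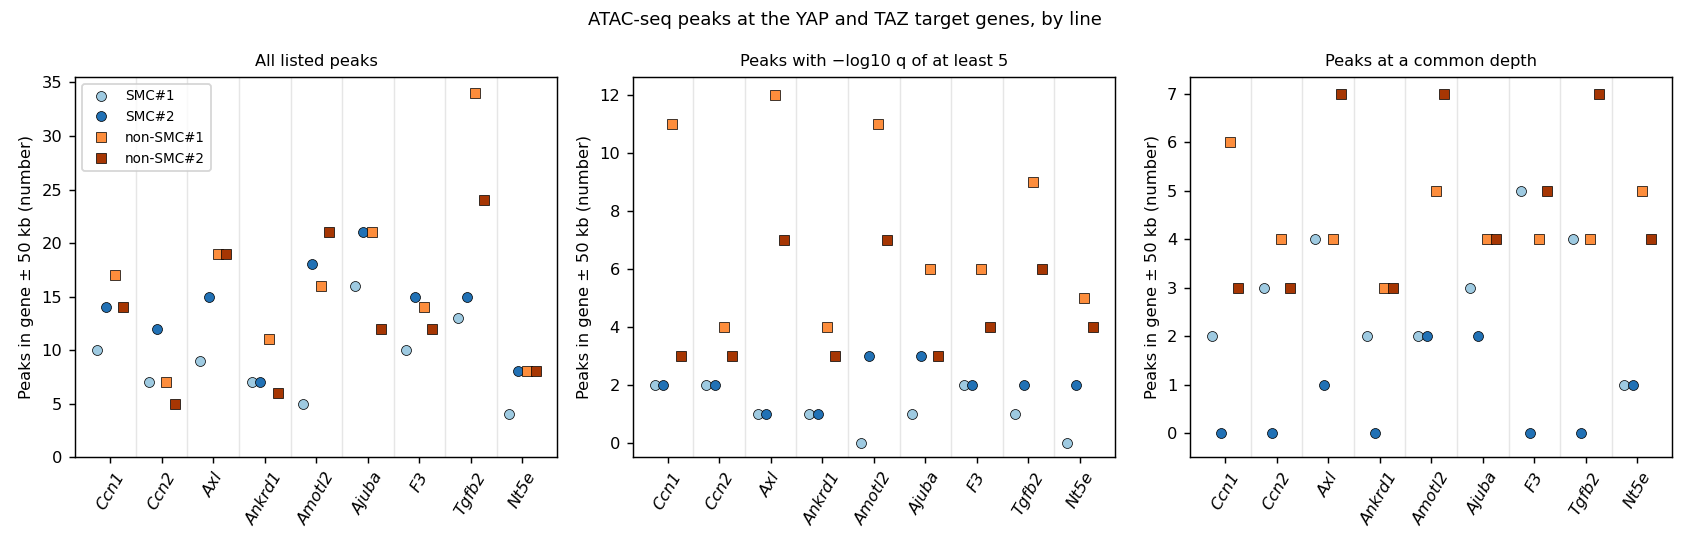
Number of peaks within 50 kb of each target gene in each line (circles, SMC lines; squares, non-SMC lines), for all listed peaks, strong peaks (-log10 q of 5 or more) and peaks at a common depth. The types overlap at most genes with all peaks, and both non-SMC lines lie above both SMC lines at 8 of 9 genes with strong peaks and at 5 of 9 at the common depth.

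Of the 309 regions at the targets, 37 (12.0%) had a peak in both non-SMC lines but no SMC line, where 7.33% of all regions did. The opposite pattern, SMC-only, was found at 11 (3.56%), where 4.37% of all regions had it. A further 18 regions had a peak in all 4 lines and 211 in 1 line only. Where a line was left out the pattern asks less, and non-SMC-only regions numbered 79 without Non-SMC#1 and 103 without Non-SMC#2, and SMC-only regions 80 without SMC#1 and 45 without SMC#2. Both lines of the type had a strong peak at 17 of the 37 non-SMC-only regions and at 1 of the 11 SMC-only regions.

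More non-SMC-only than SMC-only regions were found at 6 of the 9 targets, where 48.1% of all genes had more, and the opposite at 2 of 9, *Ccn2* and *F3*, where 20.8% of all genes did. *Tgfb2* had 9 non-SMC-only and 1 SMC-only region, *Amotl2* 8 and 2, *Axl* 6 and 0, *Nt5e* 4 and 0, *Ccn1* 4 and 2, and *Ajuba* 3 and 0. *Ankrd1* had 1 of each, its promoter being the non-SMC-only one. *Ccn2* had 1 non-SMC-only and 3 SMC-only regions, and *F3* had 1 and 2. Most non-SMC-only regions were distal, since 4 of the 37 summits lay within 3 kb of the start of the target. By position, 12 were upstream of the gene, 13 downstream, 10 in an intron and 2 in a UTR, and for 32 of them the nearest protein-coding start was that of the target.

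**Figure D3:**
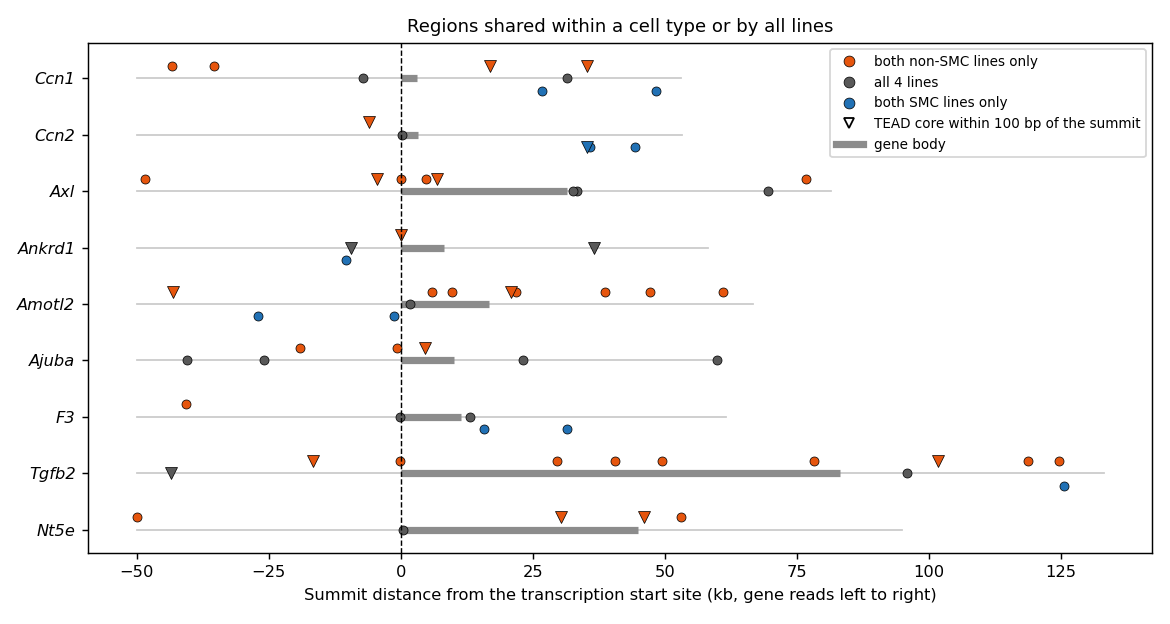
Summits of the regions at each target gene by distance from its transcription start in kb, for regions with a peak in both non-SMC lines only (orange), all 4 lines (grey) and both SMC lines only (blue); triangles mark a TEAD core within 100 bp of the summit and grey bars the gene body. Of the 37 orange regions 13 are triangles, and 4 lie within 3 kb of the start.

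The highest-ranked non-SMC-only regions, by how high their peaks stood in the 2 lists, were mostly strong in both lines. That of *Ccn1*, 35301 bp upstream (chr3:145684733-145685579), had a fold enrichment of 15.0 in Non-SMC#1 and 12.3 in Non-SMC#2, above 98.1% and 98.3% of their lists. That of *Nt5e*, 46036 bp past the start and beyond the end of the gene (chr9:88372970-88373457), had 14.3 and 11.2, above 97.5% and 97.3%. That of *Tgfb2*, 118830 bp past the start and also beyond the gene (chr1:186586851-186587598), had 15.0 and 8.64. The *Ankrd1* promoter described above had 15.2 and 12.3.

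Each top region had the lower fold enrichment in Non-SMC#2, a value that depends on depth. Pileup over the genome background was higher in Non-SMC#2 at *Axl*, 65.7-fold against 41.7-fold in Non-SMC#1, and at *F3*, 12.5-fold against 10.1-fold. At the other targets it was lower in Non-SMC#2. That of *Amotl2*, 43133 bp upstream (chr9:102673237-102673933), had 14.6 in Non-SMC#1 and 5.96 in Non-SMC#2. That of *Ccn2*, 5970 bp upstream (chr10:24589149-24589594), had 8.81 and 5.92, and that of *Ajuba*, in an intron 4599 bp past the start (chr14:54572767-54573262), had 7.57 and 5.24. The top region in the *Axl* window (chr7:25711484-25712254), with 9.71 and 9.06, lay in a UTR of the neighbouring *Ccdc97* and had that gene as its nearest start. The top region of *F3*, 40595 bp upstream (chr3:121682606-121683148), was the weakest, with 4.32 and 4.05.

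The top SMC-only regions were found at 6 targets and stood above 32.1% to 92.2% of their lists. That of *Ccn1*, shown above, had fold enrichments of 6.24 and 4.84 in SMC#1 and #2, and one 10424 bp upstream of *Ankrd1* (chr19:36130323-36130605) had 7.05 and 4.33. At *Amotl2* an SMC-only region 27101 bp upstream (chr9:102689486-102690699) had 5.18 and 6.84. One 35213 bp past the start of *Ccn2* (chr10:24630576-24630932), the only SMC-only region with a TEAD core, had 5.96 and 3.87. One 125690 bp past the start of *Tgfb2* (chr1:186580154-186580437) had 4.12 and 5.91, and that of *F3*, 31419 bp past the start (chr3:121754752-121755016), was the weakest in SMC#2, with 4.81 and 2.76.

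A TEAD core lay within 100 bp of the summit at 13 of the 37 non-SMC-only regions of the targets, 35.1% (95% Wilson interval 21.8 to 51.2), and at 19.3% of all 26224 non-SMC-only regions. Within 250 bp the shares were 45.9% (31.0 to 61.6) and 34.2%, so the interval held the share of all regions there. These intervals treat the regions as independent, although 9 of the 37 lay at *Tgfb2* and 8 at *Amotl2*. All 37 also came from the same non-SMC lines, so the intervals are no test against the share of all regions. Of the 11 SMC-only regions at the targets 1 had it, 9.09% (1.62 to 37.7), against 9.48% of all 15618 such regions. The AP-1 motif, to which the JUN and FOS factors bind, was found at 16 of 37, 43.2% (28.7 to 59.1), at the targets and at 46.8% of all non-SMC-only regions. None of the 11 SMC-only regions had it, which allows up to 25.9%, against 4.19% of all. Both motifs were found together at 7 of the 37 regions (18.9%) and at 7.93% of all non-SMC-only regions.

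The cores were spread over the targets. Non-SMC-only regions with a TEAD core numbered 2 each at *Ccn1*, *Axl*, *Amotl2*, *Tgfb2* and *Nt5e*, 1 each at *Ccn2*, *Ankrd1* and *Ajuba*, and 0 at *F3*. In the sequences above, the cores of *Ccn2* began 7 and 44 bases from the summit, that of *Ajuba* began at the summit itself, and the 2 cores of *Amotl2*, 63 and 19 bases away, stood among 2 AP-1 motifs 33 and 59 bases away. A match is a description of the letters and not a bound site.

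Counted over single peaks, the TEAD core was found at 6.17% (2.67 to 13.6) of the 81 target peaks of SMC#1 and 7.2% (3.83 to 13.1) of the 125 of SMC#2. It was found at 22.4% (16.5 to 29.8) of the 147 of Non-SMC#1 and 27.3% (20.1 to 35.8) of the 121 of Non-SMC#2. Both SMC lines lay below and both non-SMC lines above the share of their whole list, which was 10.3%, 10.6%, 15.0% and 13.6% in the same order. The intervals of both SMC lines held the share of their list. The AP-1 motif was found at 7.41% (3.44 to 15.2) and 1.6% (0.440 to 5.65) of the target peaks in SMC#1 and #2 and at 25.9% (19.5 to 33.5) and 24.8% (18.0 to 33.2) in the non-SMC lines. Its share over the whole lists was 4.58%, 4.84%, 23.4% and 18.1%, so both motifs were more frequent in the non-SMC lists genome-wide. Peaks of different lines at a shared region carry the same bases and are not independent.

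**Figure D4:**
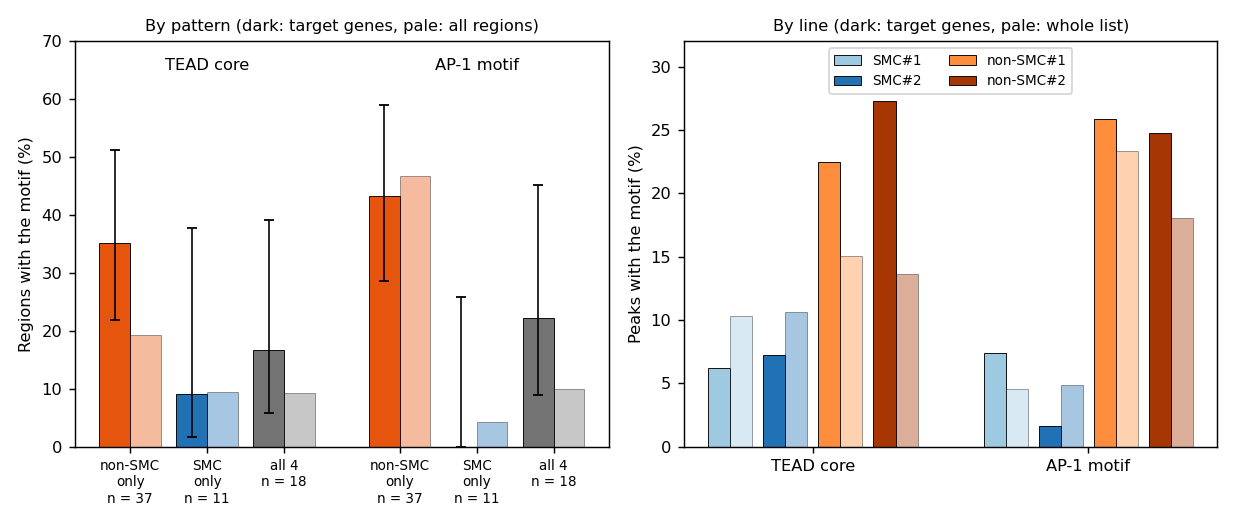
Share in percent of regions (left, by pattern, with 95% Wilson intervals for the target genes) and of peaks (right, by line) with a TEAD core or an AP-1 motif within 100 bp of the summit, dark bars for the target genes and pale bars for all regions or the whole list. The TEAD core was found at 35.1% of the non-SMC-only regions of the targets and 19.3% of all such regions, and the AP-1 motif at 43.2% and 46.8%.

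A further 14 genes were taken from a 22-gene YAP and TAZ target signature, to which not all 9 targets belong. These 14, among them *Lats2*, a kinase of the Hippo pathway, had 108 non-SMC-only and 30 SMC-only regions in their windows. All 14 had more of the former, beside 6 of the 9 targets above and 48.1% of all genes. The windows of the 14 genes held more peaks, with a mean of 23.6 in the non-SMC lines. It was 14.9 at the targets and 10.6 over all genes, and the shares of all genes were not matched for this. With all peaks, 3 of the 14 had more peaks in both non-SMC lines than in either SMC line, and 9 did with strong peaks and 7 at the common depth, beside 14.9%, 32.2% and 21.6% of all genes. None had the opposite under any of these. The largest differences were at *Asap1*, with 21 and 36 peaks in SMC#1 and #2 and 55 and 59 in the non-SMC lines, and at *Gadd45a*, a growth arrest and DNA damage gene, with 5, 5, 14 and 23. The median difference in peaks, SMC minus non-SMC, was -3.75 over the 14 genes, -2 over the 9 targets and 0 over all genes.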

How the data were processed

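The authors mapped paired-end ATAC-seq reads to mm10 with Bowtie2 2.3.4, removed duplicates and called peaks per library with MACS2 2.1.1. The peak caller's settings were not given in the sources used here. The authors deposited 1 peak list per line, with the fold enrichment over local background and the -log10 p-value and -log10 q-value of each summit. These depend on the depth of each library, so lists were compared by position. The lowest -log10 p in a list was 2.00 to 2.01, so a missing peak means a site below that limit. Depth was judged from the background of each list. The study gives read totals per cell type, not used here.

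Only chromosomes 1 to 19, X and Y entered the analysis, with protein-coding genes of GENCODE M21 (GRCm38, the mm10 assembly). Peaks overlapping by at least 1 base were merged into regions. Pileup and background were recovered from fold enrichment and p for all but 3 to 5 peaks per library, after a test on simulated peaks. For the common depth both were scaled to SMC#1. Each region was searched for motifs on either strand, up to 100 bp from the summit of its most enriched peak. The 9 genes, and their highest non-SMC-only and SMC-only region each, were named, with the 2 of the 14 further signature genes with the largest difference. 1 SMC marker is not reported here. Members, lists and motifs were chosen with earlier results of these data known. The alternatives run were strong peaks only (-log10 q of at least 5), 91057 top peaks per library, the common depth, other windows and motif distances, and each line left out. The lines share numbers 1 and 2, and within-pair values are given where they bear on a result. Sequences came from RefSeq promoters and the reference genome, which may differ from the mixed strains of these lines. Scripts ran under Python 3.11.15 with pandas 2.3.3, scipy 1.17.1, numpy 2.4.6 and matplotlib 3.10.9, and overlaps were checked with bedtools 2.31.1.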

Additional observations from a re-analysis of the deposited data

Results flagged for a closer look

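At 3 of the target genes the 2 line pairs went opposite ways in the number of peaks per window with all listed peaks, and this difference between pairs was not tested. At *Ankrd1* the difference, SMC minus non-SMC, was -4 in pair 1 and 1 in pair 2, a gap of 5 peaks. At *Ajuba* it was -5 in pair 1 and 9 in pair 2, a gap of 14. At *F3* it was -4 in pair 1 and 3 in pair 2, a gap of 7. SMC#1, of pair 1, had the fewest peaks in all, 91057, and SMC#2, of pair 2, the most, 153954, and the part of list length in these gaps was not tested.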

How the results depend on the processing

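The mean difference in peaks per window kept its direction under every alternative run for it, between -5.89 and -1. The number of targets with more peaks in both non-SMC lines, 2 with all peaks, was 8 with strong peaks, 4 with the same number of top peaks (17.5% of all genes), 5 at the common depth and 6 with 100 kb on each side (15.3%). With all peaks and a line left out it was 2 to 6, namely 2 without SMC#1 (18.5%), 6 without SMC#2 (44.2%), 3 without Non-SMC#1 (26.8%) and 4 without Non-SMC#2 (24.2%). With strong peaks and a line left out, both choices changed together and added after the data were seen, it was 8 to 9. Non-SMC-only regions, 37, numbered 19 at the common depth, 20 with 10 kb, 61 with 100 kb, and 41 to 103 with a line left out. SMC-only regions, 11, numbered 1 with strong peaks and at the common depth, 2 with 10 kb, 17 with 100 kb, 6 with a reciprocal overlap of 50%, and 12 to 80 with a line left out. Leaving out a line only drops a condition from these patterns, so their counts rise. The TEAD share was 57.9% of the 19 regions at the common depth, against 20.6% of all non-SMC-only regions there, and 21.6% within 50 bp, against 11.3% of all. With a line left out it was 34.1% without SMC#1, 37.8% without SMC#2, 27.8% without Non-SMC#1 and 24.3% without Non-SMC#2. The share of all regions under these 4 settings is not given here. The promoter difference, -2.5, was -5 with strong peaks, -4.5 at the GENCODE start itself and -3.5 at the RefSeq start of 8 genes (both added after the data were seen), -4 with the same number of top peaks, at the common depth and with 2 kb, and -4 to -1 with a line left out. Single genes turned their direction in peaks per window. *Ccn2*, 3.5, was -1.5 with strong peaks, -2 at the common depth and -1 with 10 kb. *Ajuba*, 2, was -2.5 with strong peaks, -0.5 with the same number of top peaks, -1.5 at the common depth, -0.5 with peaks nearest to its start, and -2.5 to 6.5 with a line left out. *F3*, -0.5, was 0.5 with 10 kb, 1.5 with peaks nearest to its start, and -3 to 2 with a line left out. *Ankrd1*, -1.5, was -4 to 1 with a line left out. The cause of these changes was not tested. SMC#1 had the lowest background, and the part of depth was not tested.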
